A study of Arabidopsis thaliana with 8 samples.

Results

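Ribosome footprints were compared with mRNA in Arabidopsis thaliana under blue light, to find which nuclear genes carried many or few ribosomes for the mRNA they had. The comparison used 4 of the 8 libraries of the study: 2 footprint libraries and 2 mRNA libraries, all labelled as the blue light condition. The other 4 libraries, 2 of each assay labelled as dark, served only to show where a ratio differed without light. The labels give no genotype, tissue, plant age, light intensity or duration, so no group could be checked against markers of a labelled tissue. They also do not say whether replicates came from separate plants, and p-values then measure only the spread between these libraries, which may be technical.

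Of 27206 nuclear loci with a coding length in the deposited tables, 3340 had enough counts in both assays to be tested. Chloroplast and mitochondrial gene models were left out, and each locus was represented by its longest model. Another 11798 loci passed the count filter in footprints alone, 729 passed in mRNA alone and 11339 passed in neither. The limit was the mRNA: the 2 blue-light mRNA libraries held 407955 and 331867 nuclear counts, against 4873809 and 3713750 in the footprint libraries, and the median tested locus had a mean of 20 mRNA and 227.5 footprint counts. Loci with many footprints and few mRNA counts are therefore outside the test, and every count of list members below covers only those with enough mRNA. Replicate libraries of both assays differed by more than sampling noise, with a chi-square per degree of freedom of 1.53 between the footprint libraries and 2.17 between the mRNA libraries.

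In ribosome profiling, the pieces of mRNA covered by translating ribosomes survive a nuclease and are sequenced as footprints. The number of footprints on a coding region depends on how much of its mRNA is present and on how many ribosomes each copy carries, so the ratio of footprints to mRNA is used as a measure of ribosome load, often called translational efficiency. A high ratio can come from frequent initiation or from slow elongation, and short upstream reading frames (uORFs) in a leader are known to lower initiation at the main coding region. Blue light is sensed in plants by cryptochromes and phototropins, and light brings on the synthesis of chlorophyll and of the photosynthetic complexes.

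The ratio of footprints to mRNA in blue light spanned a wide range. Ratios below are fitted log2 differences of footprints minus mRNA with an approximate standard error (SE), relative to the typical tested locus, since scaling places the middle of all ratios near 0. The SE lay below Poisson counting error alone at 1055 loci and is too small there. Among the genes given below, emb2386, RPS15, PIP2;4, PSAN and GAPC2 are such loci. The median was -0.03, the 25th and 75th percentiles were -1.32 and 1.21, and the 1st and 99th percentiles were -4.00 and 3.62, which is 0.0627-fold and 12.3-fold of the scaled mRNA level. With edgeR's quasi-likelihood test at a Benjamini-Hochberg adjusted p under 0.05, 2603 of 3340 loci (77.9%) were called, 1313 above the typical ratio (39.3%) and 1290 below it (38.6%). At a fitted difference of at least 2-fold as well, 981 (29.4%) were above and 1028 (30.8%) below. The 2 footprint and 2 mRNA values of a locus did not overlap, in library-size-scaled counts (scaled CPM), at 2994 loci (89.6%). Since most loci passed the test, the size and the rank of a ratio say more than the call.

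The zero point of the ratio depends on the scaling and the order of the genes does not. With upper-quartile scaling the median ratio fell by 0.987 on the log2 scale, and with total counts alone it fell by 0.775, with a rank correlation of 1.0 to the ratios given here in both cases. The calls then became 654 above against 1986 below, and 810 against 1836. A ratio between 0 and 0.99 is thus above the typical locus in the scaling used here and below the zero point in the other.

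Among the tested loci, the standard deviation was 2.54 for log2 footprint counts per codon and 1.57 for log2 mRNA counts per codon. The filter cuts the range of the mRNA close to its typical count and that of the footprints far below theirs, so the 2 spreads cannot be compared. Spearman's rho between the 2 levels was 0.675 across loci, which share their coding length and are not independent replicates. The ratio, which is built from both levels, had a rho of 0.819 with footprints per codon and of 0.178 with mRNA per codon. These 2 values depend on the spreads of the 2 levels, which the filter shapes, so they do not show which level sets the order of the ratio. The ratio from replicate 1 and the ratio from replicate 2, which share no library, had a rho of 0.956 over the same 3340 loci. The ratio fell slightly with coding length, from a median of 0.27 at loci of 28 to 340 codons to -0.28 at loci of 783 to 5384 codons, the lowest and the highest quartile of length.

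**Figure D1:**
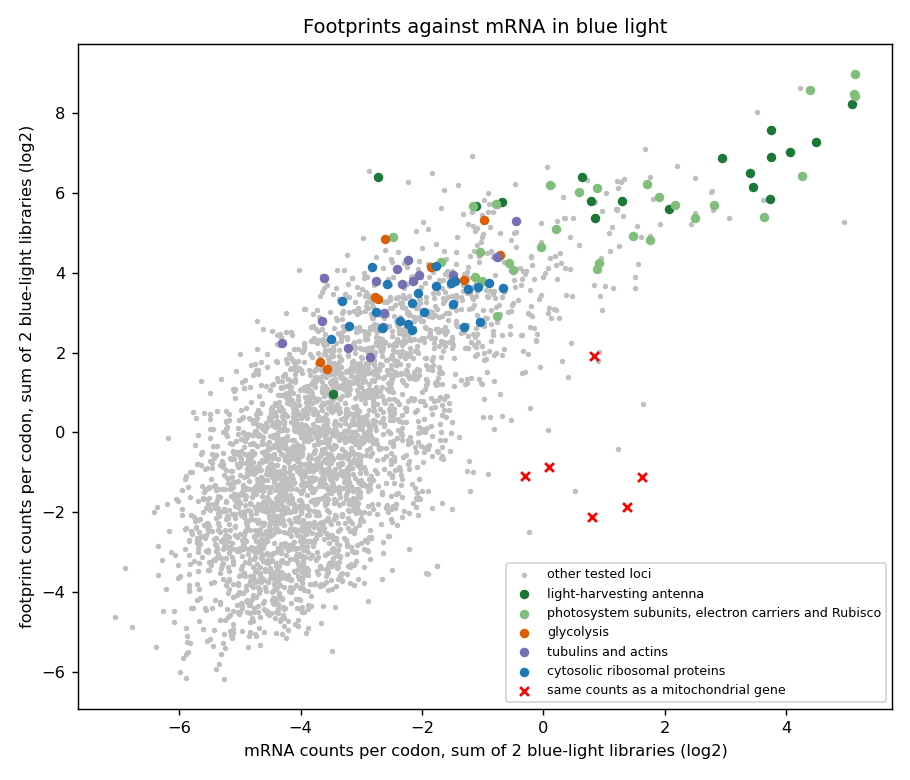
Footprint counts per codon (vertical, log2) against mRNA counts per codon (horizontal, log2), each the sum of the 2 blue-light libraries, for the 3340 tested loci. Glycolysis, tubulin and actin genes lie in the upper part of the cloud at low to middle mRNA levels, antenna and photosystem genes reach the highest levels of both, and the 6 crosses are loci with the same mRNA counts as a mitochondrial gene, at high mRNA and few footprints.

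Among named genes whose mean mRNA count reached 50, the highest ratios included those of enzymes, photosynthetic proteins and membrane proteins, all with many footprints. PYK10, a beta-glucosidase stored in endoplasmic reticulum bodies, had 36889 and 25833 footprint counts against 110 and 119 mRNA counts. In scaled CPM these are 15491 and 14040 footprints against 504 and 639 mRNA, a log2 ratio of 4.70 ± 0.13 (SE, n = 2 libraries per assay, adjusted p = 5.65e-17 by edgeR). CA2, a carbonic anhydrase, had 5546 and 5727 footprint CPM against 307 and 290 mRNA CPM, a ratio of 4.24 ± 0.13. Both genes had footprint values over 10 times their mRNA values in each library.

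The next highest were PATL1, a Sec14-like lipid-binding protein, at 3.54 ± 0.14, PSBO1 of the oxygen-evolving complex at 3.45 ± 0.13, and HSC70-1, a cytosolic chaperone, at 3.42 ± 0.12. LHCA3, an antenna protein of photosystem I, stood at 3.41 ± 0.13, and LOS1, the elongation factor that moves the ribosome along mRNA, at 3.38 ± 0.14. XTH4, a xyloglucan endotransglucosylase of the cell wall, had 3.31 ± 0.13, and COR413-PM1, a cold-regulated membrane protein, 3.22 ± 0.16. PSBP-1 of the oxygen-evolving complex (3.14 ± 0.13), LHCA1 of the photosystem I antenna (3.08 ± 0.12) and the plasma membrane proton pump HA2 (3.08 ± 0.13) completed the 12. Being called and having no overlap were conditions of the pick. Each of the 12 kept a ratio above 0 when any 1 of the 4 libraries was left out. Each also kept its call under each of the scalings run.

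The lowest ratios in the same group of well-covered genes included regulators, a meiotic gene and genes of the cell wall. ASY2, a relative of the meiotic axis protein ASY1, had 17 and 14 footprint counts against 65 and 59 mRNA counts. In scaled CPM this is 7.14 and 7.61 footprints against 298 and 317 mRNA, a ratio of -5.36 ± 0.24 (adjusted p = 1.08e-13 by edgeR). MGP4, a xylosyltransferase for rhamnogalacturonan II, had 34.4 and 24.5 footprint CPM against 353 and 403 mRNA CPM, a ratio of -3.64 ± 0.21. For both, footprint values lay far below mRNA values, and the lack of overlap itself was a condition of the pick.

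The cell wall genes TED7 of tracheary elements (-3.51 ± 0.24), PRP1, a proline-rich wall protein (-3.09 ± 0.21), and LRX2, a leucine-rich repeat extensin (-2.07 ± 0.17), were also among the 12 lowest. So were the splicing factor RS2Z33 (-2.56 ± 0.15), the transcription factors YAB3 (-2.54 ± 0.18) and HB34 (-2.11 ± 0.19), the phosphoprotein PHOS34 (-2.52 ± 0.15) and the thylakoid processing peptidase TPP (-2.48 ± 0.18). MAX2, the F-box protein of strigolactone and karrikin signalling, stood at -2.17 ± 0.16, with 213 and 163 footprint counts against 86 and 76 mRNA counts. The nucleoporin LNO1 had -2.05 ± 0.21. Loci without footprints also had mRNA counts. There were 5093 such loci, of at least 100 codons and with no more than 2 footprints over all 4 footprint libraries. They held 37.18% and 32.42% of the nuclear counts in the 2 blue-light mRNA libraries. Their median level there was 8.22 and 6.57 mRNA counts per 1000 codons. The 12 genes had 3.84 (LNO1) to 130.1 (PHOS34) times that level, and whether part of their mRNA counts has the same source was not tested. The 12 highest had 9.79 (HA2) to 42.0 (LHCA1) times it. Some high ratios given below rest on less mRNA. PHOT1, with 19 and 28 mRNA counts, had 3.33 times that level, PHYA (26 and 28) 3.34, PIP2;4 (12 and 11) 5.56 and TUA3 (13 and 23) 5.77. The median tested locus had 5.55.

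**Figure D2:**
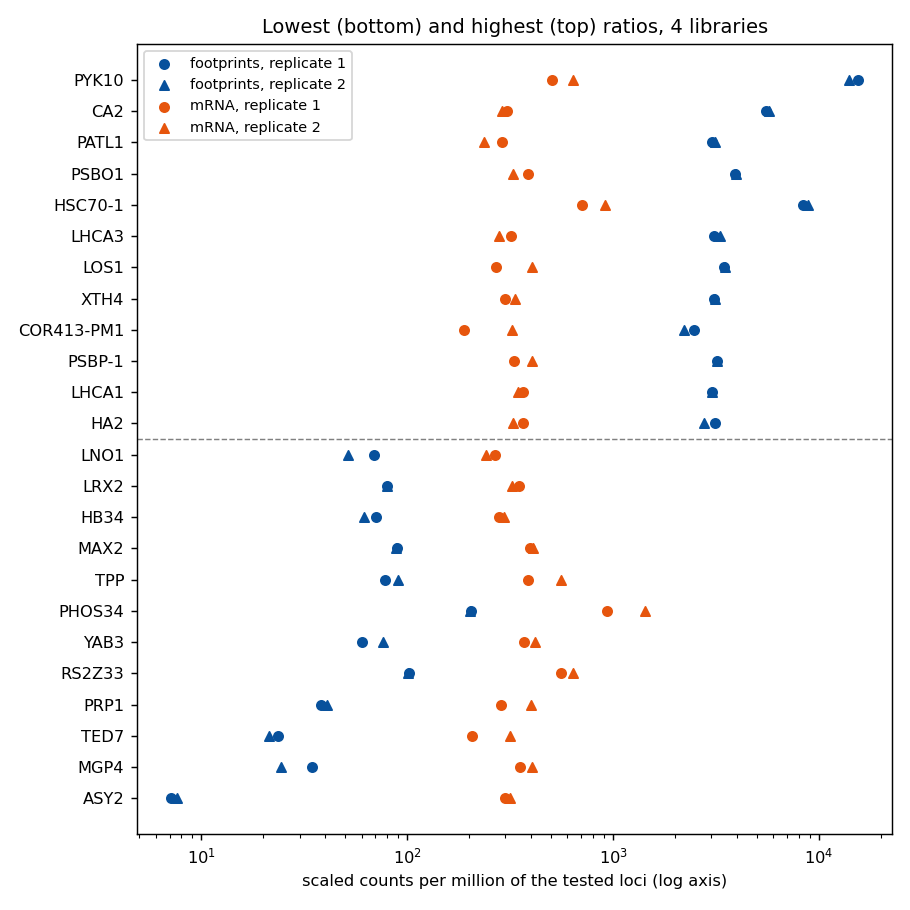
Scaled CPM (log axis) in the 4 blue-light libraries for the 12 lowest ratios (below the dashed line) and the 12 highest (above it). Genes were picked among called genes with a symbol, a mean mRNA count of at least 50 and no overlap of footprint with mRNA values. The mRNA points of the 24 genes lie between 188 and 1423, while footprints run from 7.14 at ASY2 to 15491 at PYK10.

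Some of the lowest ratios of all belong to nuclear loci that had the counts of a mitochondrial gene. At 21 nuclear loci the mRNA counts of both blue-light libraries equalled those of a mitochondrion-encoded gene of the same coding length, within 1 codon, with footprint counts within 10. All 6 of them that were tested were below, from -2.30 to -6.60. AT2G07741 had 111 and 61 footprints against 576 and 579 mRNA counts, the same 4 numbers as ATMG00410, and a ratio of -6.14 ± 0.14. AT2G07751 had 15 and 15 against 140 and 143 and a ratio of -6.60 ± 0.21, the lowest of all tested loci. Reads of the 2 copies cannot be told apart in these counts, so the ratio of the nuclear copy is uncertain. Another 19 tested loci had the same 4 counts as another tested locus, and near-identical copies such as the elongation factor 1-alpha, tubulin, RBCS and LHCB1 genes can share reads in the same way.

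Tested genes of the translation machinery had high ratios of footprints to mRNA. Of 123 cytosolic ribosomal proteins, 24 were tested, and all 24 were called above, with a median ratio of 1.87 against -0.03 for all tested loci. Over all tested loci 39.3% were above and 38.6% below, the shares to set beside every list that follows. The other members lacked mRNA counts: 96 passed in footprints alone and 3 in neither. Some had many footprints and no mRNA counts, such as EMB1080 with 801 and 624 footprints against 0 and 0. Whether the mRNA counts follow transcript level, at such genes or at the tested ones, was not tested, and the strand setting is not given. The ribosomal protein gene emb2386 had 834 and 897 footprint CPM against 87.0 and 53.7 mRNA CPM, a ratio of 3.59 ± 0.20, and RPS15 had 2.90 ± 0.23. Their counting errors alone are 0.27 and 0.30. All 15 tested of 24 translation factors and poly(A)-binding proteins were above as well, with a median of 2.06. The elongation factor 1-alpha genes AT1G07940, AT1G07930 and AT5G60390, which deliver aminoacyl-tRNA, had 3.06 ± 0.12, 3.06 ± 0.12 and 3.03 ± 0.12. The initiation helicase EIF4A1 was the lowest of the list, at 0.39 ± 0.11. Under upper-quartile scaling 16 ribosomal proteins and 11 factors were above, and 1 and 2 were below.

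Enzymes of glycolysis, proton pumps and the cytoskeleton held the highest medians of the 16 lists. All 9 tested of 10 glycolysis genes were above, with a median of 2.60, and so were all 6 tested of 11 proton pump genes, with a median of 2.73. These 9 and 6 calls held under each of the scalings run. GAPC2, a cytosolic glyceraldehyde-3-phosphate dehydrogenase, had 2259 and 2188 footprint CPM against 128 and 140 mRNA CPM, a ratio of 4.06 ± 0.15. Its close relative GAPC1 stood at 2.93 ± 0.13, the phosphoglycerate kinase PGK at 2.80 ± 0.17 and the aldolase FBA6 at 2.67 ± 0.17. The plasma membrane proton pump HA1 had 3.72 ± 0.15, and the vacuolar pumps AVP1 and VAB3 both had 2.73, ± 0.13 and ± 0.21.

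All 16 tested of 18 tubulin and actin genes were above, with a median of 2.60, and 15 were above under upper-quartile scaling. TUA3, an alpha-tubulin, had 1487 and 1580 footprint CPM against 59.5 and 124 mRNA CPM, a ratio of 4.10 ± 0.19. The 7 tested of 9 cellulose synthesis genes were above too, with a median of 2.56 and 6 above under upper-quartile scaling. With the mRNA level of loci without footprints subtracted, only 3 of them remained tested, all above. GH9A1, the membrane endoglucanase KORRIGAN, had 3.35 ± 0.16, and the catalytic subunit CESA1 had 2.56 ± 0.16. Of 13 plasma membrane aquaporins, the channels for water, 11 were tested and all were above, with a median of 1.62 and 10 above under upper-quartile scaling. They ran from 0.99 at PIP1C to 3.85 ± 0.21 at PIP2;4. TIP2, a water channel of the vacuole and 1 of the 8 loci with most footprints, had 1.12 ± 0.09.

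**Figure D3:**
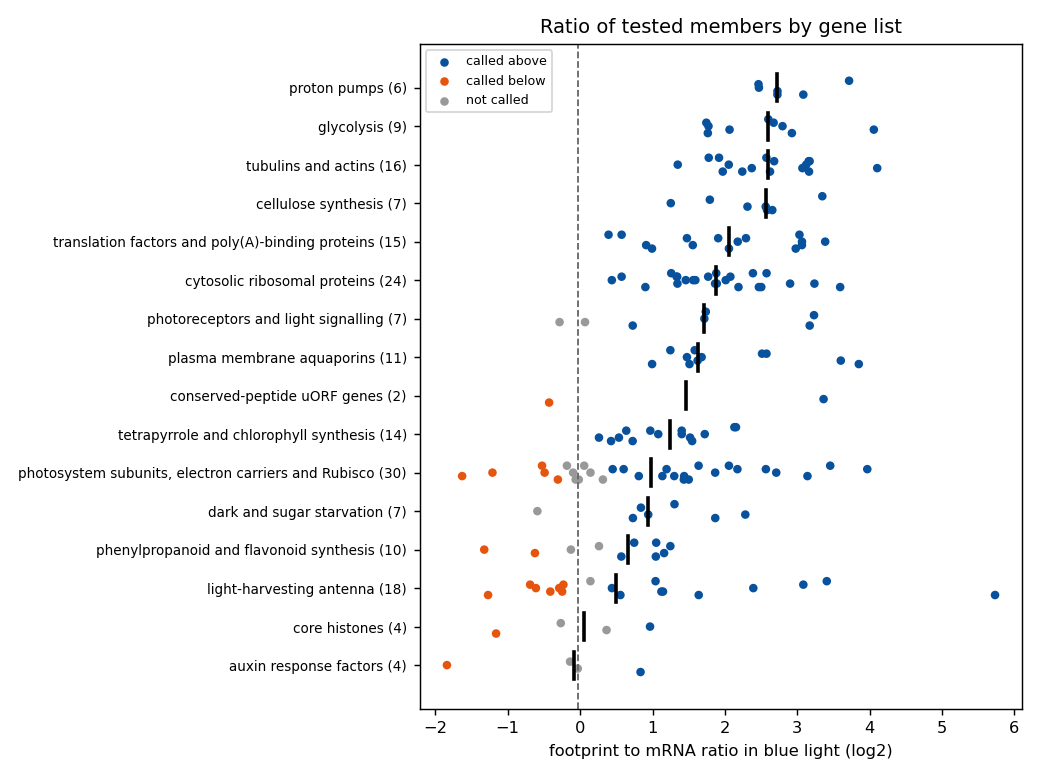
Log2 ratio of footprints to mRNA in blue light for the tested members of each of the 16 gene lists, with the number tested in brackets, a black bar at each list's median and a dashed line at the median of all tested loci (-0.03). Members of the pump, glycolysis and cytoskeleton lists all lie above 1, while the antenna list runs from -1.27 to 5.73. Members with too few mRNA counts are not shown, and upper-quartile scaling would move every point down by 0.99.

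Genes of the photosynthetic apparatus lay on both sides of the typical ratio. Of 21 light-harvesting antenna genes, 18 were tested, of which 10 were above (55.6%, against 39.3% of all tested loci) and 7 below (38.9%, against 38.6%), with a median of 0.50. LHCB5, a minor antenna protein of photosystem II also called CP26, had 13538 and 9372 footprint counts against 20 and 21 mRNA counts. In scaled CPM these are 5685 and 5094 footprints against 91.6 and 113 mRNA, a ratio of 5.73 ± 0.16, the second highest of all tested loci. Its counting error alone is 0.23, larger than the fitted SE. LHCB6, the neighbouring minor antenna CP24, was at the other end with 7987 and 6384 footprint counts against 1731 and 1593 mRNA counts, a ratio of -1.27 ± 0.09.

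The 4 genes LHCA1 to LHCA4 of the photosystem I antenna ranged from 0.14 ± 0.09 at LHCA2, which was not called, through 2.39 ± 0.11 at LHCA4 to the LHCA1 and LHCA3 values above. The 5 major photosystem II antenna genes named for their mRNA or footprint counts lay between -0.61 and 0.44. The other tested LHCB1 and LHCB2 genes lay outside this range: LHB1B1 at -0.69 ± 0.09, LHCB2.2 at 0.56 ± 0.10 and LHCB2.3 at 1.145 ± 0.11. CAB1 stood at -0.23 ± 0.09, CAB3 at -0.41 ± 0.09, LHB1B2 at -0.61 ± 0.09, LHCB2.1 at -0.25 ± 0.11 and CAB2 at 0.44 ± 0.09. CAB1 had 43564 and 34240 footprint counts against 4445 and 4278 mRNA counts. The calls below rest on small differences: 4 antenna genes were below without the second footprint library, 4 without the second mRNA library and 5 without the first footprint library, and CAB1 and LHCB2.1 lost their calls without either footprint library or without the second mRNA library, where LHCB2.1 also changed sign. Under upper-quartile scaling 5 antenna genes were above and 10 below.

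Of 34 photosystem subunits, electron carriers and Rubisco genes, 30 were tested, with a median of 0.97. Above were 18 (60.0%, against 39.3% of all tested loci) and below 5 (16.7%, against 38.6%). PSAN, a photosystem I subunit, had 1253 and 1145 footprint CPM against 64.1 and 91.3 mRNA CPM, a ratio of 3.97 ± 0.19. PSBX of photosystem II had 2.71 ± 0.14, and RCA, which activates Rubisco, 2.06 ± 0.10. The photosystem I subunit PSAG (-1.63 ± 0.09) and the ferredoxin FED A (-1.21 ± 0.11) were the lowest. The 4 RBCS genes of the Rubisco small subunit, near-identical copies, lay between -0.10 ± 0.09 at RBCS1B and 0.81 ± 0.09 at RBCS2B. Under upper-quartile scaling the list had 13 above and 14 below. With the length trend removed 10 were below, and with the mRNA level of loci without footprints subtracted 11 were.

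All 14 tested of 22 genes of tetrapyrrole and chlorophyll synthesis were above, with a median of 1.24, and 5 were above and 5 below under upper-quartile scaling. GSA2, which makes 5-aminolevulinate, had 2.15 ± 0.21, and the methyltransferase CHLM 2.13 ± 0.20. The protochlorophyllide oxidoreductases PORB and PORA, which need light for catalysis, had 1.55 ± 0.10 and 0.97 ± 0.10. ELIP1, a light-induced protein of the thylakoid, was not called at -0.12 ± 0.09.

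The 4 photoreceptors that could be tested differed in their ratios. Of 30 photoreceptor and light signalling genes 7 were tested, while the other 23 passed in footprints alone. Of the 7, 5 were above (71.4%, against 39.3% of all tested loci) and none below (against 38.6%), with a median of 1.72. Under upper-quartile scaling and with total counts alone 4 were above and 2 below. PHOT1, the blue-light receptor of phototropism, had 1065 and 1121 footprint CPM against 87.0 and 150 mRNA CPM, a ratio of 3.23 ± 0.18. PHYA, the far-red receptor, had 3.17 ± 0.17. The blue-light receptor CRY1 stood at 0.73 ± 0.23, a value that is below 0 under both of those scalings and lost its call without either footprint library (adjusted p = 0.0581 and 0.0553 by edgeR). The phytochrome PHYC was not called, at 0.07 ± 0.26, with mRNA at only 1.98 times the level of loci without footprints. The transcription factors PIL6 and BBX21 had 1.74 ± 0.25 and 1.72 ± 0.24.

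Of 20 genes listed for an upstream reading frame with a conserved peptide, only VTC2 and SAMDC were tested, and 11 passed in footprints alone. VTC2, the GDP-L-galactose phosphorylase of vitamin C synthesis, had 2005 and 1914 footprint CPM against 169 and 215 mRNA CPM, a ratio of 3.36 ± 0.15. SAMDC, the S-adenosylmethionine decarboxylase of polyamine synthesis, had 340 and 327 against 508 and 381, a ratio of -0.43 ± 0.15 (adjusted p = 0.0117 by edgeR). This call was lost without the first footprint library (adjusted p = 0.0846), without the second (0.182), without the first mRNA library (0.369), with no filter (0.361) and with DESeq2's Wald test (0.0623). By rank, VTC2 was 59 of 3340 and SAMDC 1954.

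The remaining lists were mixed or small. Of 16 phenylpropanoid and flavonoid genes 10 were tested, with 6 above, 2 below and a median of 0.66. C4H of the general pathway had 1.25 ± 0.13 and the chalcone synthase TT4 0.75 ± 0.14, while the ligase 4CL3 had -1.32 ± 0.23. Under upper-quartile scaling none of the 10 was above. Of 14 dark and sugar starvation genes 7 were tested and 6 were above (85.7%, against 39.3%), with a median of 0.94. Only 2 were above and 1 below under upper-quartile scaling, and 3 and 1 with total counts alone. BXL1, a beta-xylosidase, had 1.87 ± 0.11. Of 12 auxin response factors 4 were tested, from ARF16 at -1.84 ± 0.26 to ARF6 at 0.83 ± 0.24. Their median mRNA was only 2.84 times the level of loci without footprints. Of 19 core histones 4 were tested, from the locus AT1G09200 at -1.16 ± 0.19 to HTB4 at 0.97 ± 0.18. In each of these last 2 lists 1 member was above and 1 below, and under upper-quartile scaling none was above and 3 were below.

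Most of this order was also seen in the dark, in libraries that the blue-light test did not use. Over the 2674 loci tested in both fits, the ratio in blue light and the ratio in dark had a Spearman's rho of 0.895, as a description across loci. Of 1077 loci called above in blue light 966 had a dark ratio above 0, and of 988 called below 943 had a dark ratio below 0. The interaction of assay and light, fitted on all 8 libraries at 2904 loci, called 288 loci (9.92%) with a higher ratio in blue light and 213 (7.33%) with a lower one. This split turned with the scaling, to 238 higher and 279 lower with DESeq2 size factors, 229 and 309 with the upper quartile, and 477 and 138 with total counts alone.

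Among the lists with high ratios, few pumps, aquaporins or glycolysis genes were called as different from dark. Few loci were called at all, 9.92% higher and 7.33% lower of 2904, so few calls do not set such small lists apart. None of the 6 proton pumps and none of the 11 aquaporins tested in both fits was called, and 1 of 9 glycolysis genes was, TPI with a lower ratio in blue light (-1.21 on the log2 scale, adjusted p = 0.00424). The median ratio of the 9 glycolysis genes was 2.61 in the dark against 2.51 in blue light, and that of the 6 pumps 2.79 and 2.64. PHOT1 differed by -0.12 ± 0.35 and PHYA by 0.06 ± 0.32, and neither was called, with errors that leave room for a difference of either sign. XTH15, a xyloglucan endotransglucosylase, had 2.31 ± 0.20 in blue light and was not called as different either.

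Many photosynthetic genes had lower ratios in blue light than in the dark. Of 29 photosystem, carrier and Rubisco genes tested in both fits 19 were lower and 2 higher, with a median ratio that was 1.91 without light and 0.72 with it. Of 15 antenna genes 9 were lower and 1 higher, with medians of 1.02 and 0.05. Over all 2904 loci of that fit 7.33% were lower and 9.92% higher. CAB2 had 1777 and 1972 footprint counts in the dark and 27624 and 21530 in blue light, while its mRNA counts went from 54 and 50 to 1813 and 1655. Its ratio was lower by -2.07 ± 0.28 (adjusted p = 5.8e-06 by edgeR). The 4 RBCS genes differed by -1.92 (RBCS1B) to -1.46 (RBCS1A), and PORB of chlorophyll synthesis by -1.65 ± 0.25. PSBO1 was higher, by 0.89 ± 0.25. With 1 of the 8 libraries left out in turn, 16 to 21 photosystem genes and 6 to 10 antenna genes were lower.

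The largest rise among the named genes was that of VTC2, by 3.95 ± 0.34 (adjusted p = 1.67e-09 by edgeR). Its footprint counts were 125 and 161 in the dark against 4775 and 3522 in blue light, while its mRNA counts were 30 and 38 in the dark against 37 and 40. The footprint groups did not overlap, and the ratio in the dark was -0.68. SAMDC rose by 1.48 ± 0.21 with nearly level footprint CPM, at 380 and 378 in the dark and 395 and 388 in blue light. Its mRNA CPM was 1231 and 1780 in the dark and 636 and 476 in blue light. HSC70-1 rose by 1.48 ± 0.25, with 2633 and 2537 footprint CPM in the dark and 9779 and 10469 in blue light. CESA1 rose by 1.43 ± 0.25, with footprint CPM of 1107.3 and 1043.5 in the dark and 1423.7 and 1361.0 in blue light. Its mRNA CPM was 535.9 and 507.8 in the dark and 206.1 and 301.5 in blue light. MAX2 rose by 1.05 ± 0.24, with footprint CPM of 52.0 and 58.7 in the dark and 104.1 and 105.2 in blue light. Its mRNA CPM was 468.9 and 626.8 in the dark and 492.4 and 509.2 in blue light. YAB3 and TPP, both among the lowest in blue light, had ratios of -0.47 and -0.39 in the dark and were lower in blue light by -2.16 ± 0.29 and -2.18 ± 0.27. Both were picked for low ratios in the same blue-light libraries, which favours a negative difference.

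**Figure D4:**
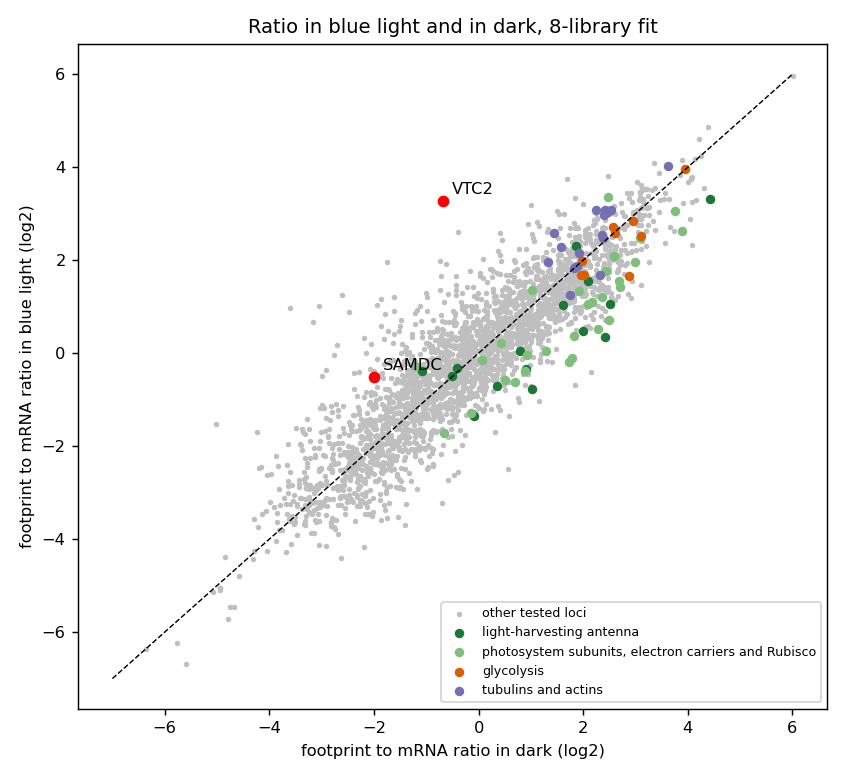
Log2 ratio of footprints to mRNA in blue light (vertical) against dark (horizontal) for the 2674 loci tested in both fits, from the 8-library fit, with the diagonal dashed. Most loci follow the diagonal (rho 0.895), many antenna and photosystem genes lie under it, and VTC2 lies above it at -0.68 in dark.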

How the data were processed

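Per the labels' protocols, footprints came from RNase I digestion and ribosome pelleting, and mRNA libraries from a TruSeq kit. The deposited values are whole-number counts per transcript model with no normalization. Build TAIR10 and the tools TopHat2 2.0.9, Bowtie2 2.1.0 and CASAVA 1.8 are listed in the submitters' processing notes, and the counting tool and strand setting are not given in the sources used here. A further deposited column resembles coding length in codons and chose 1 model per locus. Symbols came from a RefSeq table of TAIR10.1, which matched 26719 of 27206 nuclear loci, so no coordinates are given.

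The main test was edgeR 4.0.16 (R 4.3.3) with TMM over the tested loci, filterByExpr at a minimum count of 10 in each assay and a two-sided quasi-likelihood F-test at an adjusted p of 0.05. One spread per locus was shared by both assays (common dispersion 0.00267). The SE is the fitted difference over the square root of F; it lay below Poisson counting error at 1055 loci, and all 2603 calls had a 95% counting interval on 1 side of 0. Intervals cover counting error only. limma 3.58.1 and DESeq2 1.42.0 gave alternatives. The fits were also run on data simulated with the fitted common dispersion for both assays. Such data cannot show how the fits cope with mRNA replicates that vary more than footprint replicates. Named genes are the 12 highest and 12 lowest ratios as described and the 8 loci with most footprints and with most mRNA. Up to 4 members per list by absolute ratio and 13 preset loci, where tested, were added. Others (EIF4A1, PIP1C, PSAG, FED A, LHCA2, LHCB6, LHB1B1, LHCB2.2, LHCB2.3, PHYC, TPI) were chosen after their values were seen. Members and lists were chosen with earlier results of these data known.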

Additional observations from a re-analysis of the deposited data

Results flagged for a closer look

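No group had enough libraries for a check of single outlying libraries. Some of the 96 named genes, such as LHCB5 and TT4, were not tested over 8 libraries. Among those that were, 29 had a footprint to mRNA ratio that differed between blue light and dark by the interaction test (edgeR, adjusted p under 0.05). Over all 2904 loci of that test, 501 were called. Values are log2 differences, blue light minus dark.

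The genes with a lower ratio in blue light were mostly photosynthetic: CAB2 (-2.07), RBCS1B (-1.92), RBCS3B (-1.9), RBCS2B (-1.77), PORB (-1.65), RBCS1A (-1.46), PSBX (-1.27), LHCB2.1 (-1.25), LHCA3 (-1.11), LHB1B2 (-1.05), RCA (-1.02) and PORA (-0.94). The histone genes HTB4 (-1.32), AT5G10980 (-1.05) and AT5G65360 (-1.04) were lower too. Of the 12 genes with the lowest ratios in blue light, TPP (-2.18), YAB3 (-2.16), LRX2 (-1.45), TED7 (-1.23), PRP1 (-1.09), MGP4 (-0.98) and PHOS34 (-0.61) had lower ratios there than in the dark. These 12 were picked for low ratios in the same blue-light libraries, which favours a negative difference.

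The ratio was higher in blue light at VTC2 (3.95), SAMDC (1.48), HSC70-1 (1.48), CESA1 (1.43), MAX2 (1.05), BBX21 (0.96) and PSBO1 (0.89). At BBX21 footprints were fewer in blue light, with 284.8 and 288.0 CPM against 765.1 and 772.6 in the dark. Its mRNA CPM was 108.8 and 73.7 in blue light and 396.7 and 562.7 in the dark. HSC70-1 and PSBO1 were picked for high ratios in blue light, which favours a positive difference.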

How the results depend on the processing

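The zero point, the filter and the size of the mRNA libraries limit these results. In blue light, calls above and below were 654 and 1986 with upper-quartile scaling and 810 above with total counts alone. They were 6997 and 8456 with no filter (25467 loci), 5038 and 3962 with the filter passed in at least 1 assay (15867 loci), 180 and 167 at a mean mRNA count of at least 50 (416 loci) and 748 and 796 when tested against a 2-fold ratio. With the mRNA level of loci without footprints subtracted, chosen after seeing the data, they were 831 and 817 (2071 loci). Leaving out 1 library gave 944 to 1225 above and 931 to 1195 below. For the difference from dark, total counts alone gave 477 higher and 138 lower, and a mean mRNA count of at least 50 gave 90 higher, 37.8% of calls against 57.5%. Leaving out 1 library gave 198 to 307 higher and 129 to 254 lower, with 138 lower without the first blue-light footprint library, 139 and 136 without either dark footprint library, and 129 without the second blue-light mRNA library. DESeq2's Wald test called 1199 above and 1141 below, and for the difference 219 higher and 254 lower.

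Same-numbered libraries showed no shared deviation: the correlation was 0.007 in blue light and 0.013 in dark over 2904 loci. Counting noise at low mRNA counts could hide a pairing, so these values cannot exclude it. With the replicate block, 1306 loci were above and 1313 below, and 237 were higher and 170 lower in blue light than in dark.

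Over the alternatives, named genes kept direction and call in 1535 values, lost the call in 55, gained it in 33 and changed sign in 34, for which the cause was not tested beyond the shift of the zero point. Upper-quartile scaling gave -0.538 for RBCS1A, -0.177 for RBCS2B, -0.547 for CAB2, -0.152 for ARF6, -0.047 for EXL2, -0.022 for HTB4, -0.622 for AT5G10980, -0.241 for TT4, -0.018 for PORA and -0.261 for CRY1. Total counts alone gave -0.322 for RBCS1A, -0.333 for CAB2, -0.41 for AT5G10980, -0.028 for TT4 and -0.049 for CRY1. A mean mRNA count of at least 50 gave -0.243 for RBCS1A and -0.254 for CAB2. No filter gave 0.022 for CAB1, 0.235 for RBCS3B, 0.157 for RBCS1B, 0.004 for LHCB2.1, 0.117 for NPH4, 0.222 for ARF10 and 0.133 for ELIP1. The shortest model gave 0.148 for RBCS3B. Removing the length trend gave 0.166 for NPH4 and 0.172 for ARF10. Subtracting the mRNA level of loci without footprints gave 0.008 for NPH4 and -0.028 for AT5G10980. With 1 library left out, the values ran from -0.082 to 0.108 for RBCS3B, -0.149 to 0.024 for RBCS1B, -0.435 to 0.064 for LHCB2.1, -0.292 to 0.21 for NPH4 and -0.591 to 0.191 for AT5G65360, each positive only without an mRNA library.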

Other observations

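Loci outside the test held large shares of the counts. The 729 nuclear loci that passed in mRNA alone held 36.3% and 31.7% of nuclear mRNA counts and 0.04% of nuclear footprint counts in each footprint library, and 326 of them had 0 footprints in both. AT1G40104 had 57690 and 40001 mRNA counts and AT2G08986 had 53090 and 35737, each with 0 footprints in both libraries. Both were chosen after their values were seen, and their source was not tested.

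The 11798 loci that passed in footprints alone held 35.15% and 35.01% of nuclear footprint counts, and 859 of them had 0 mRNA counts in both libraries. They included TCTP, the translationally controlled tumour protein homologue, with 6378 and 4684 footprints against 1 and 0 mRNA counts, and ACBP6, a cytosolic acyl-CoA-binding protein, with 3840 and 2879 against 0 and 0. The photosystem genes PSAE-1 and PSBW had 3214 and 2477 footprints against 16 and 6, and 3349 and 2289 against 2 and 2. These genes are among the footprint-richest of that class, chosen after their values were seen.

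Genes outside the naming rule, chosen after their values were seen, also differed from dark. The light signalling gene SPA4 had a ratio of -0.28 in blue light and -2.92 in the dark (difference 2.55, adjusted p = 0.000199 by edgeR). BT2 had -0.59 and 1.84 (difference -2.52, adjusted p = 8.36e-05), and the flavonol glycosyltransferase UGT78D1 had 0.57 and -1.53 (difference 2.01, adjusted p = 0.000453).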
